A study of Mus musculus with 14 samples.

Results

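The 44 genes described here run the cell division cycle and copy DNA, and they were taken as a list of named mouse genes from replication licensing to mitosis. Members were the probe sets that the platform annotation gives to a single one of these symbols, and where a gene had several, the one with the highest average over the 14 arrays was kept. Of 18194 genes with such a probe set in the whole series, 43 belonged to the list, and the annotation named 0 probe sets for Ccnb1, whose expression was not analysed here. A gene was tested when its probe set read above the array's own median on at least 3 of the 14 arrays, which held for 22 of the 43 and for 11360 genes in all.

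The study measured RNA of mouse lung to compare ventilator-induced injury, pre-B-cell colony-enhancing factor (PBEF, the product of Nampt) and both together. VILI PBEF+/- lungs (n = 3) came from animals 8 to 12 weeks old that were ventilated for 4 hours, and VALI lungs (n = 4) from animals 18 to 22 weeks old that were also ventilated for 4 hours. PBEF+/- lungs (n = 3) and Control lungs (n = 4, given PBS) were from unventilated animals 18 to 22 weeks old. Ventilated animals received breaths of 40 ml/kg by their labels but of 30 ml/kg by the series text, which also speaks of recombinant human PBEF instilled intratracheally. Whether PBEF+/- names a genotype or that protein is not settled by the labels, so the groups keep their labelled names. VILI PBEF+/- animals were also younger, so age cannot be told apart from ventilation in the comparison with PBEF+/-, nor from PBEF in the comparison with VALI. The labels do not say that each array is a separate animal, so the spread between arrays may be partly technical.

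DNA replication begins with licensing in G1: the origin recognition complex and CDC6 load rings of MCM2 to MCM7 onto origins, and these rings become the core of the replicative helicase. Cyclin E with its kinase and the E2F factors then drive entry into S phase, ribonucleotide reductase supplies the building blocks, and PCNA clamps polymerases to the template. Cyclin B with CDK1, the Aurora and Polo kinases, spindle motors and the chromosomal passenger complex carry cells through mitosis. Most cells of the adult lung are outside the cycle. Transcripts of these genes in whole lung may come from the minority that cycles, among them endothelial, epithelial and blood-derived cells, but need not come from cycling cells alone. In whole tissue, fewer cycling cells and less RNA per cell cannot be told apart.

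Promoters of cell cycle genes often carry CCAAT boxes, the cell cycle homology region (CHR, searched as TTTGAA or TTCGAA) and E2F sites (searched as TTTNNCGC). The sequences shown are the 200 bases before the start of 5 members on which the results turn: Cdc6 and 4 of the members that read lowest in VILI PBEF+/-. They were taken from RefSeq for build GRCm38.p6 and are written 5′ to 3′ on the gene's strand, and capitals mark matches to these motifs on either strand. They lie at chr11:98907951-98908150 for Cdc6 (plus strand), chr6:88898781-88898980 for Mcm2 (minus strand), chr8:75109309-75109508 for Mcm5 (plus strand), chr12:24708054-24708253 for Rrm2 (plus strand) and chr7:135716380-135716579 for Mki67 (minus strand).
Cdc6: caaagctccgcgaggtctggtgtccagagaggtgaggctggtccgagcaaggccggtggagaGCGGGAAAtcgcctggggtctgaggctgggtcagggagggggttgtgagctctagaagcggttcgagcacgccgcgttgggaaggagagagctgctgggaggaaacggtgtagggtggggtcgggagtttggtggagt
Mcm2: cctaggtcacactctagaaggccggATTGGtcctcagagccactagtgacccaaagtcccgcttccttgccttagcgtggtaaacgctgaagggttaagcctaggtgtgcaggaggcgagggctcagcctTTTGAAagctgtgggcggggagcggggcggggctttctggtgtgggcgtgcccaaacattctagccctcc
Mcm5: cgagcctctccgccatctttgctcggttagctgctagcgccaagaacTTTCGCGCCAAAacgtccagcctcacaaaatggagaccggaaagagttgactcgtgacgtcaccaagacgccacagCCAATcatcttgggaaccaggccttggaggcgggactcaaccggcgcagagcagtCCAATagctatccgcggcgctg
Rrm2: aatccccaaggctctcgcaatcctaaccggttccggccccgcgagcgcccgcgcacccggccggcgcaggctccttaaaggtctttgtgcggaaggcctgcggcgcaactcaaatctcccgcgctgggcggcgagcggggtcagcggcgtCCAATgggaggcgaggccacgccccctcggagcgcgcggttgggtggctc
Mki67: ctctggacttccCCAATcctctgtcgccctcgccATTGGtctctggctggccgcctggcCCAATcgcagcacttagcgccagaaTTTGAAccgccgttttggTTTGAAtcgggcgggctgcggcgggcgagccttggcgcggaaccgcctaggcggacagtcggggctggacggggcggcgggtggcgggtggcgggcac

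Over the full window of 300 bases, from 250 before to 50 after the start, 36 of the 44 listed genes had an entry, Ccnb1 among them. CCAAT occurred in 29 of them (80.6%), against 41.1% of all 27025 promoters. TTTGAA or TTCGAA occurred in 20 (55.6%), against 21.7%, and TTTNNCGC in 8 (22.2%), against 5.93%. None of the 3 motifs was found in 5 of the 36 (13.9%), against 44.3% of all genes with an entry. The 118 matches held 2 pairs of overlapping matches of different motifs. Matches were counted in every window, so a site shared by overlapping windows of a gene, as for Prc1, counts more than once. The Cdc6 window differed from the other 4 shown here in having neither a CCAAT nor a CHR match. A match is a description of letters, and it was not tested whether any factor binds there.

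The levels below are deposited log2 expression values, and a probe set's level also depends on its own probes, so levels rank arrays within a gene and not genes against each other. Mean readings of the kept probe sets ran from 1.93 for thymidine kinase Tk1, 2.11 for Aurka and 2.31 for Plk1, both mitotic kinases, to 9.73 for Mcm7, 9.77 for Mcm6 and 12.23 for the replication clamp Pcna, which does not order the transcripts by abundance. Of the 22 tested genes, 16 read above the array median on all 14 arrays: 6 of the 7 tested licensing and helicase genes (Cdc6, at 12 arrays, being the exception), the 4 tested nucleotide and fork genes, Ccne2, Cdc20, Kif23, Mki67, Top2a and Cenpa. Just inside the filter was Nusap1, with 3 arrays above the median (Control 3, Control 4 and VALI 4), and just outside were Bub1, Ube2c and Cdca8, with 2 each. For Cdca8 this holds for the kept probe set, while 1 of its 3 probe sets, with a lower mean, passed the filter and differed by -0.33 between VILI PBEF+/- and VALI.

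**Figure D1:**
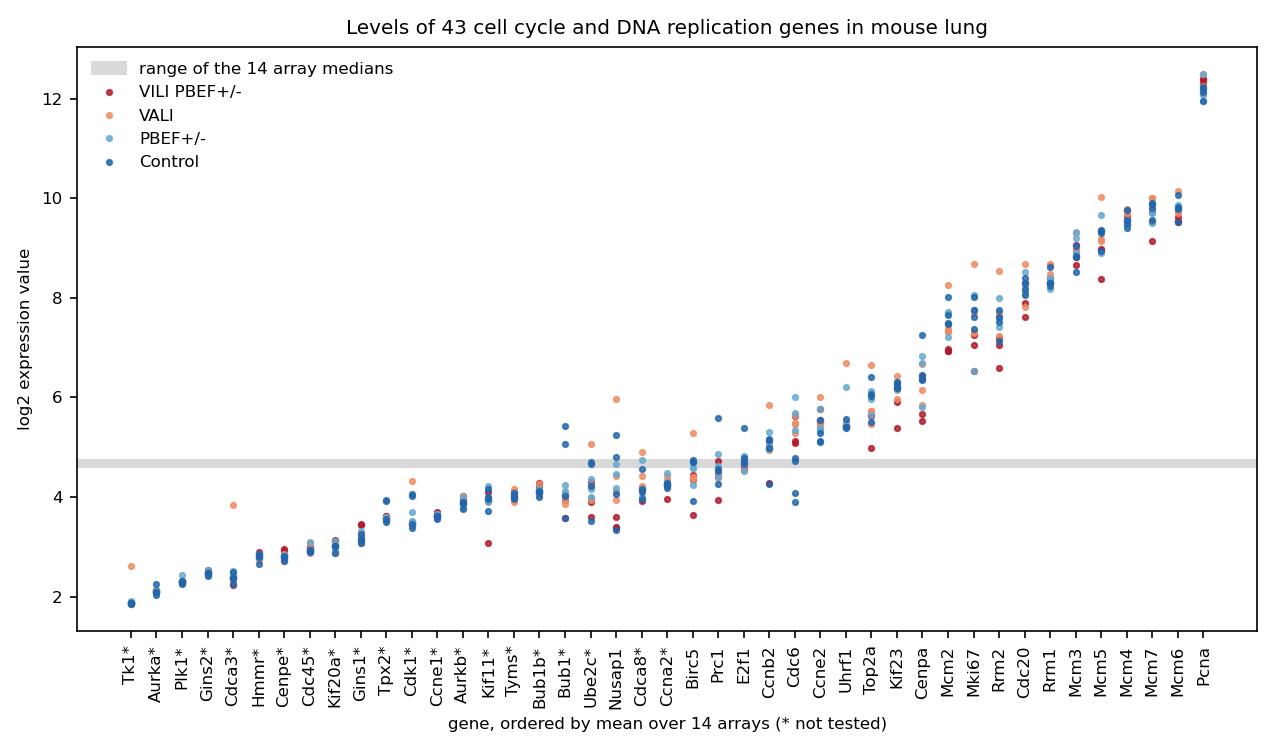
Log2 expression value (y) of each of the 43 genes (x, ordered by mean over 14 arrays) in every array, coloured by group; asterisks mark the 21 genes that were not tested and the grey band spans the 14 array medians, 4.60 to 4.75. Most untested genes lie below the band with little spread, the Pcna probe set averages 12.23, and a single VALI point, VALI 4, stands above the others for Tk1 and Cdca3.

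The 21 members that were not tested had means from 1.93 to 4.26, and 18 of them were above the median on no array. They include most of the list's mitotic kinases and motors (Aurka, Aurkb, Plk1, Bub1, Bub1b, Cdk1, Kif11, Kif20a, Cenpe). The spindle proteins Tpx2 and Hmmr and the helicase partners Cdc45, Gins1 and Gins2 are also among them. In 13 of the 21, the range over all 14 arrays was under 0.5. Some untested genes still had a single high array. Cdca3, a trigger of mitotic entry, read 2.39, 2.40 and 2.24 in VILI PBEF+/-, 2.34, 2.38, 2.31 and 3.83 in VALI, 2.37, 2.51 and 2.45 in PBEF+/- and 2.26, 2.37, 2.49 and 2.37 in Control. VALI 4 stood apart there, as it did for Tk1 at 2.62, where the other 13 arrays lay between 1.84 and 1.91.

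The arrays have to be described before the comparisons, because some stand apart. Il6, a cytokine gene that separated most ventilated from unventilated arrays, read 2.78 in VALI 4 against 9.60 to 9.85 in VALI 1 to 3, and 10.87 in PBEF+/- 3 against 2.10 and 2.56 in PBEF+/- 1 and 2. Whether these 2 arrays carry each other's labels is not settled by the labels or the data, and the VALI and PBEF+/- means, and the levels given for VALI 4, hold for the libraries so labelled. Every comparison is therefore given as labelled and again with both arrays left out. Their choice rests on what they themselves read, so p-values without them are no independent evidence. Xist, transcribed from the inactive X chromosome of female cells, was low in VALI 4 alone among the VALI arrays (2.64), in PBEF+/- 2 (2.63) and in Control 1 and 4 (2.55 and 2.56), and was 13.33 or more on the other 10 arrays, all VILI PBEF+/- arrays included. Markers of club cells (4 of 4), endothelium (5 of 5) and both alveolar epithelial types (type I 5 of 5, type II 4 of 4) passed the filter, as the lung label calls for. Heart and skeletal muscle markers (5 of 5) were above it too, and their summed log2 level reached 16.57 in VALI 4 and 15.87 in VALI 1, against 13.85 to 14.81 on the other arrays; its part in the results was not tested. The summed level of 6 neutrophil markers was arranged like Il6, at 11.15 in VALI 4 and 15.41 in PBEF+/- 3, against 15.08 to 15.63 in the other ventilated arrays and 10.94 to 13.40 in the other unventilated ones.

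VALI 4 carried the highest cell cycle levels of the study. The mean deviation of the 22 tested genes from their own 14-array means was 0.55 in VALI 4, against -0.04 to 0.01 in VALI 1 to 3. This array was the highest of all 14 for 15 of the 22 genes, while it was highest for 12.3% of all tested genes. It read above each of VALI 1 to 3 for 17 of the 22 (77.3%), against 47.5% of all tested genes, with a median excess of 0.48 against 0.11. The excess over the mean of VALI 1 to 3 was 1.81 for Nusap1, 1.25 for Mki67, 1.22 for Uhrf1, 1.01 for Top2a and 0.92 for Mcm2, and it was 0.02 for Cdc6 and -0.20 for Pcna. VILI PBEF+/- 3 was at the other end, with a mean deviation of -0.39 and the lowest reading of all arrays for 7 of the 22.

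Lymphocyte markers were extreme on the same 2 arrays but did not follow these levels on every array. The mean deviation of 5 B cell markers was 1.24 in VALI 4 and -1.06 in VILI PBEF+/- 3, the highest and the lowest of the 14 arrays, and that of 5 T and NK cell markers was 0.68 and -0.72, again the extremes. Between these extremes, ranks by falling mean deviation were close on some arrays and apart on others. For the cell cycle genes and the B cell markers they were 2 and 3 in PBEF+/- 1, 4 and 5 in Control 3, and 8 and 9 in VALI 1. They were 6 and 12 in VALI 3, 9 and 13 in VALI 2, and 10 and 7 in Control 2. Control 1 was also apart, with the second-lowest mean deviation of the cell cycle genes (-0.20) but 0.54 for the B cell and 0.12 for the T and NK cell markers, each the fourth-highest. Control 4 had the third-highest cell cycle value (0.18), with 0.38 for the B cell and -0.11 for the T and NK cell markers. The summed log2 level of the B cell list spanned 8.91 to 9.97 in VILI PBEF+/-, 9.49 to 11.89 in VALI, 10.16 to 11.47 in PBEF+/- and 10.52 to 11.13 in Control; 4 of its 5 measured markers passed the filter, and Pax5 stayed between 1.84 and 1.92 on every array. The T and NK cell list, with 5 of 5 passing, spanned 8.48 to 9.19 in VILI PBEF+/-, 9.11 to 10.06 in VALI, 9.27 to 9.61 in PBEF+/- and 9.36 to 9.60 in Control. Of 8 thymus markers 2 passed the filter, and the defining Rag1, Rag2, Dntt and Ptcra stayed between 2.04 and 3.20 on every array. Of 7 immature neutrophil and bone marrow markers 2 passed: Ltf, from 5.91 in PBEF+/- 2 to 10.76 in Control 2, and Ngp, from 3.39 in VALI 4 to 8.06 in VALI 2. Camp reached 3.16 in VALI 2, while Mpo, Elane, Prtn3 and Ctsg stayed between 1.99 and 2.36. The parts of lymphocytes and of immature neutrophils in the cell cycle levels were not tested.

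**Figure D2:**
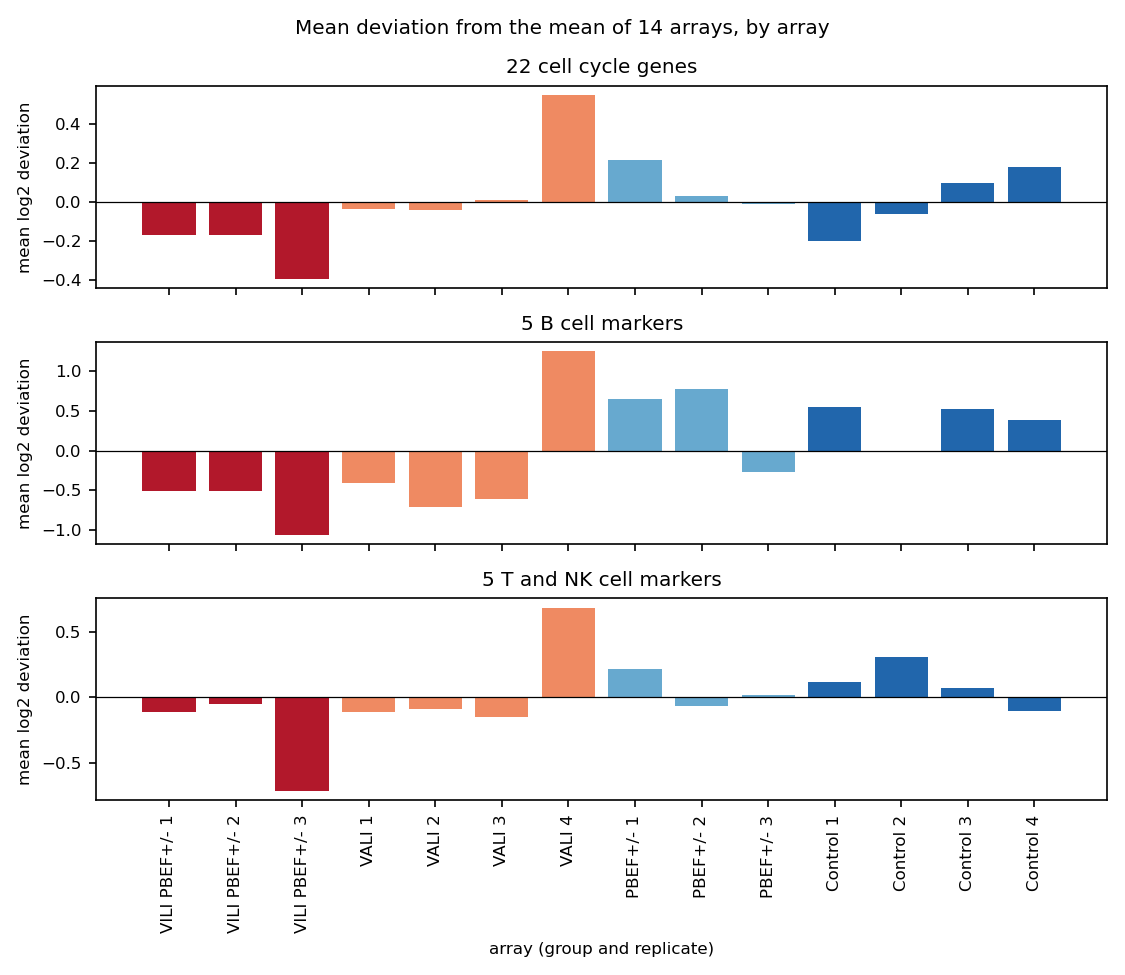
Mean log2 deviation from the mean of 14 arrays (y) for the 22 tested cell cycle genes, 5 B cell markers and 5 T and NK cell markers, as 1 bar per array (x) coloured by group. VALI 4 is highest and VILI PBEF+/- 3 lowest in all 3 panels, at 0.55 and -0.39 for the cell cycle genes.

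Across groups, the mean deviation of the 22 genes (± SD over arrays) was -0.24 ± 0.13 in VILI PBEF+/-, 0.12 ± 0.29 in VALI, 0.08 ± 0.12 in PBEF+/- and 0.00 ± 0.17 in Control, with n = 3, 4, 3 and 4. All 3 VILI PBEF+/- arrays lay below 0, at -0.17, -0.17 and -0.39, but Control 1 at -0.20 fell among them.

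**Figure D3:**
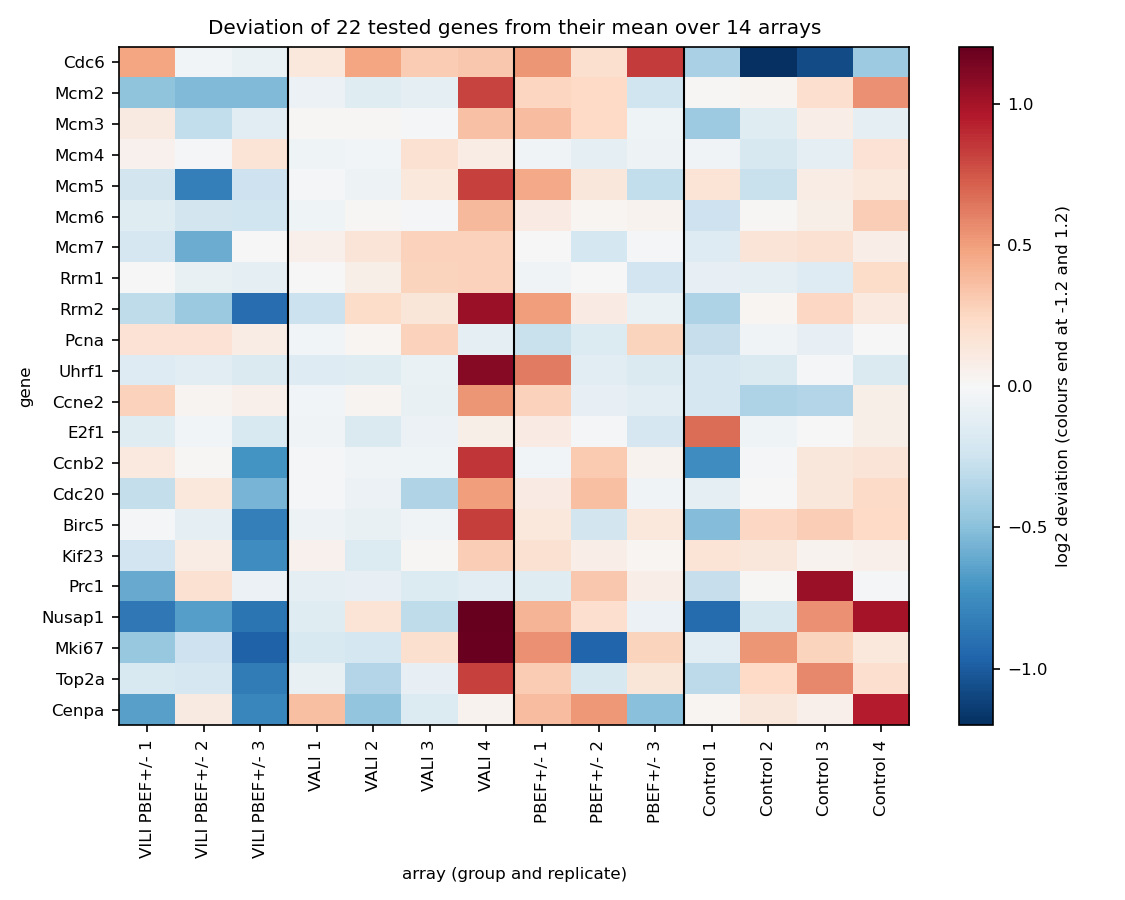
Deviation of each tested gene (rows) from its mean over 14 arrays, in log2 units as a colour from -1.2 to 1.2, for every array (columns, grouped by black lines). The VALI 4 column is mostly red, the VILI PBEF+/- columns are mostly blue, and the Cdc6 row is darkest blue in the 4 Control arrays.

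As labelled, limma called none of the 22 members, or 0% of all 11360 genes tested, at an adjusted p under 0.05 in any of the 5 comparisons. At an unadjusted p under 0.05, limma found 1 member higher in VALI than in Control (4.55% of 22, against 7.22% of all genes tested), 1 higher in PBEF+/- than in Control (against 1.93%), 2 lower in VILI PBEF+/- than in PBEF+/- (9.09%, against 11.4%), 5 lower in VILI PBEF+/- than in VALI (22.7%, against 7.09%) and 3 with a negative interaction (against 2.71%). The interaction is the difference between VILI PBEF+/- and PBEF+/- minus the difference between VALI and Control. Only the VILI PBEF+/- animals were younger, so age cannot be told apart from the interaction either. The median difference over all 43 genes was -0.18 between VILI PBEF+/- and PBEF+/-, -0.19 between VILI PBEF+/- and VALI, 0.03 between PBEF+/- and Control and 0.03 between VALI and Control, where all 18194 genes had medians of 0.03, 0.03, 0.01 and 0.00 in that order. Of the 43, 28 were lower and 15 higher in VILI PBEF+/- than in PBEF+/-, and the same split held against VALI. These medians leaned on single arrays: the median against PBEF+/- was -0.05 without VILI PBEF+/- 3, and the median against VALI was -0.04 without VALI 4 and -0.09 without VILI PBEF+/- 3. They also changed with the probe sets taken: over all 100 probe sets of the 43 genes, the median was -0.0053 against PBEF+/- and 0.012 against VALI. Those 100 include many probe sets that did not pass the filter. Over the 22 tested members the medians were -0.31 and -0.34, against -0.05 and -0.08 over all 11360 genes tested.

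**Figure D4:**
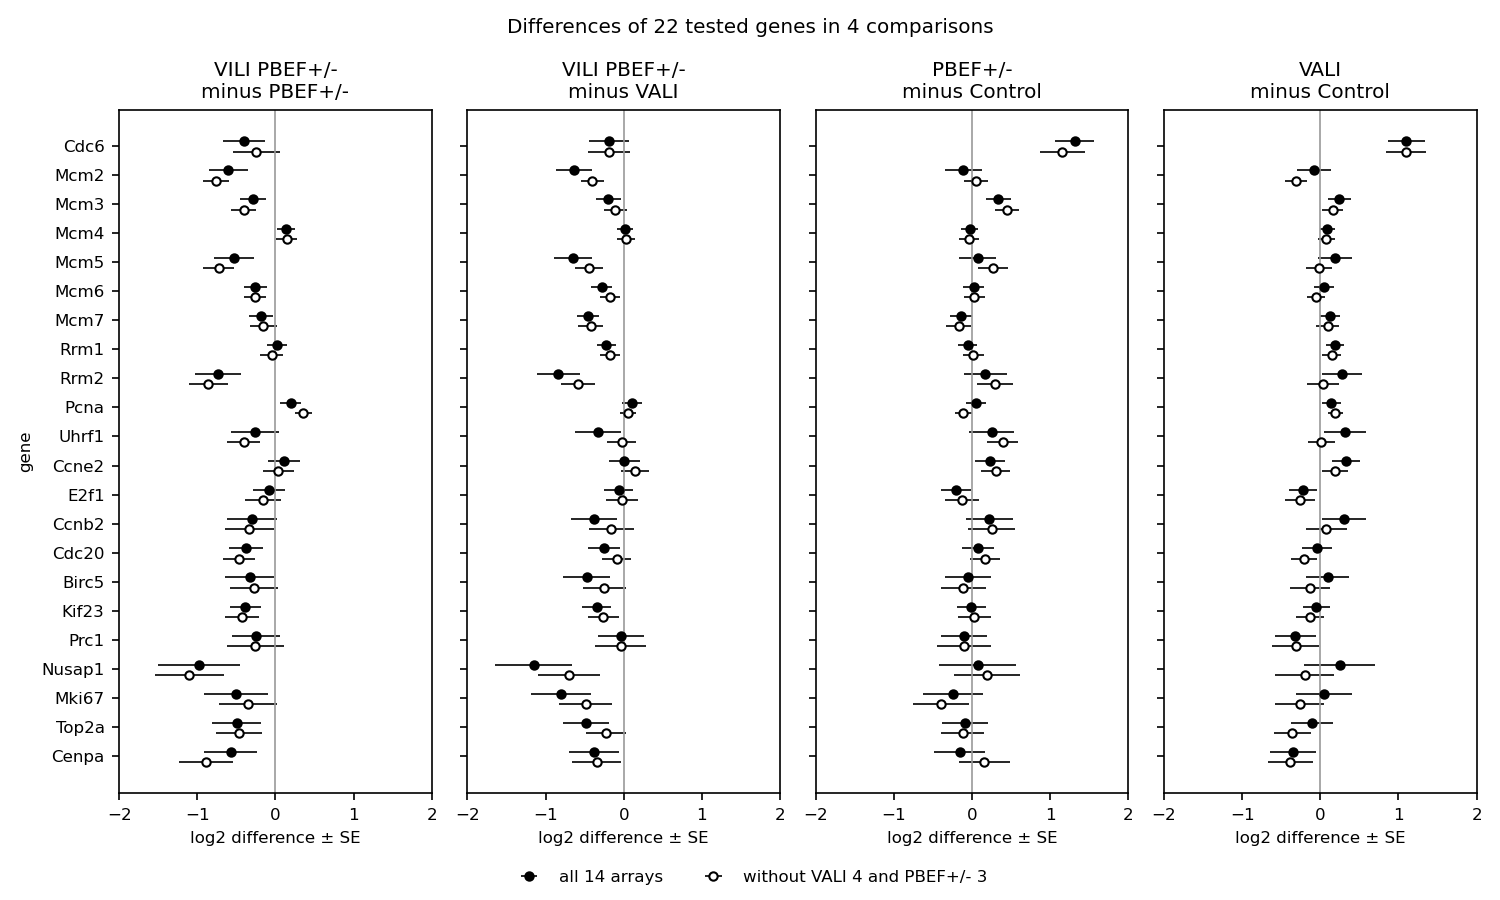
Log2 difference (x) with its standard error (bars) for each of the 22 tested genes (y) in 4 comparisons, with all 14 arrays (filled) and without VALI 4 and PBEF+/- 3 (open). Cdc6 lies above 1 in both comparisons with Control, while most genes lie below 0 in both comparisons of VILI PBEF+/-.

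Licensing and helicase genes come first. Cdc6, the loader that opens the licensing step, was the member that differed from Control most. It read 5.63, 5.13 and 5.08 in VILI PBEF+/-, 5.29, 5.64, 5.47 and 5.49 in VALI, 5.69, 5.36 and 6.01 in PBEF+/- and 4.77, 3.89, 4.08 and 4.73 in Control. All 10 arrays of the other groups were above all 4 Control arrays. Control also spread more, with its arrays between 3.89 and 4.77, near or below the array median. Such readings stand little above background, so the differences from Control are given on the log2 scale and not as folds. VALI averaged 5.47 ± 0.14 (SD, n = 4) and Control 4.37 ± 0.45 (SD, n = 4), a difference of 1.10 ± 0.23 (SE; limma adjusted p = 0.0834; rank 56 of 11360 by p). Without VALI 4 and PBEF+/- 3 the difference was 1.10 ± 0.25 and Cdc6 rose by this test (limma adjusted p = 0.0134), and over 22 alternative settings its adjusted p lay between 0.0134 and 0.258. Leaving out VALI 4 alone gave limma adjusted p = 0.0377, and leaving out PBEF+/- 3 alone gave 0.0336.

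PBEF+/- averaged 5.68 ± 0.32 (SD, n = 3) for Cdc6, 1.31 ± 0.25 above Control (SE). It ranked 2 by p among all genes tested, with limma adjusted p = 0.593 and 0.133 to 0.849 over the alternatives. As labelled, Cdc6 was the single tested member whose groups did not overlap in VALI against Control (4.70% of all genes were higher without overlap) and in PBEF+/- against Control (1.38% of all genes). Both comparisons use the same 4 Control arrays, so they are not separate evidence. Between VILI PBEF+/- and PBEF+/- the difference was -0.40 ± 0.27 (SE, limma adjusted p = 0.379). The interaction was -1.51 ± 0.36 (SE, limma adjusted p = 0.732, and 0.34 to 1 over the alternatives). Cdc6 has 1 probe set on this platform, so no second measurement was at hand.

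Mcm2, a subunit of the MCM ring, read 6.98, 6.93 and 6.93 in VILI PBEF+/-, 7.39, 7.32, 7.34 and 8.27 in VALI, 7.72, 7.70 and 7.22 in PBEF+/- and 7.47, 7.49, 7.66 and 8.01 in Control. The 3 VILI PBEF+/- arrays were the lowest of all 14 and differed from each other by under 0.05. VILI PBEF+/- averaged 6.95 ± 0.03 (SD, n = 3) and PBEF+/- 7.55 ± 0.28 (SD, n = 3), a difference of -0.60 ± 0.25 (SE, limma adjusted p = 0.21). Against VALI at 7.58 ± 0.46 (SD, n = 4), where VALI 4 was far above the rest, the difference was -0.63 ± 0.23 (SE, limma adjusted p = 0.433) and -0.40 ± 0.15 without VALI 4 and PBEF+/- 3 (limma adjusted p = 0.529). A second Mcm2 probe set gave -0.51 and -0.54 for the same comparisons as labelled.

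Mcm5 of the same ring read 8.98, 8.38 and 8.96 in VILI PBEF+/-, 9.18, 9.15, 9.34 and 10.03 in VALI, 9.66, 9.35 and 8.91 in PBEF+/- and 9.37, 8.94, 9.30 and 9.34 in Control. VILI PBEF+/- differed from PBEF+/- by -0.53 ± 0.26 (SE, limma adjusted p = 0.257), with overlap at PBEF+/- 3, and from VALI by -0.65 ± 0.24 (SE, limma adjusted p = 0.433), with no overlap. Its second probe set gave -0.16 and -0.56. Mcm7 read 9.531, 9.135 and 9.734 in VILI PBEF+/- and 9.791, 9.880, 10.002 and 10.007 in VALI, which did not overlap, and differed by -0.45 ± 0.14 (SE, limma adjusted p = 0.407). Its other 3 probe sets differed by -0.16 to -0.30 between these groups. Against PBEF+/- (9.73, 9.51 and 9.72), Mcm7 overlapped, and 2 of its other probe sets were higher in VILI PBEF+/- (0.11 and 0.14).

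Mcm6, Mcm3 and Mcm4 complete the ring. Mcm6 read 9.62, 9.55 and 9.53 in VILI PBEF+/-, below every VALI array (9.71, 9.78, 9.74 and 10.15) and every PBEF+/- array (9.87, 9.79 and 9.81). The 3 values lie within 0.1 of each other, and the differences were -0.28 ± 0.13 and -0.26 ± 0.14 (SE, limma adjusted p = 0.486 and 0.311), and a second Mcm6 probe set gave -0.30 and -0.40. Control arrays read 9.52, 9.78, 9.83 and 10.07 for Mcm6, and Control 1 lay below every VILI PBEF+/- array. Mcm3 read 9.07, 8.67 and 8.83 in VILI PBEF+/-, 8.97, 8.98, 8.95 and 9.31 in VALI, 9.33, 9.20 and 8.91 in PBEF+/- and 8.53, 8.81, 9.04 and 8.85 in Control. Its interaction was -0.53 ± 0.22 (SE, limma adjusted p = 0.888), and its other 2 probe sets that passed the filter gave -0.43 and -0.03. Mcm4 was the subunit that read higher in VILI PBEF+/- than in PBEF+/-, at 9.64, 9.58 and 9.76 against 9.56, 9.48 and 9.54, without overlap, by 0.14 ± 0.11 (SE, limma adjusted p = 0.471). A second Mcm4 probe set gave 0.24 there. Against Control it gave 0.49 for VALI and 0.40 for PBEF+/-, where the kept probe set gave 0.09 and -0.03.

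**Figure D5:**
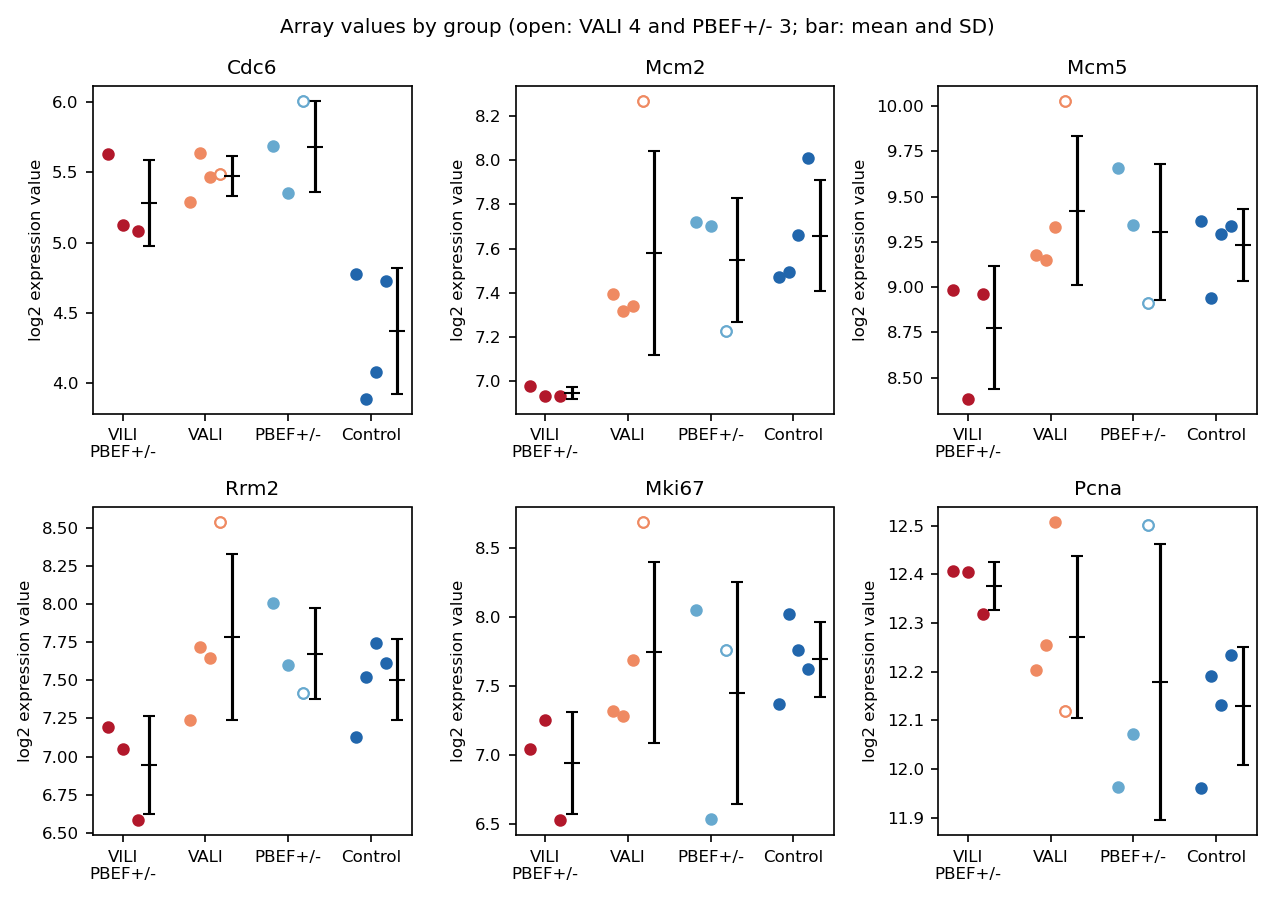
Log2 expression values (y) of Cdc6, Mcm2, Mcm5, Rrm2, Mki67 and Pcna in every array by group (x), with the group mean and SD as bars; open points are VALI 4 and PBEF+/- 3. Control is lowest for Cdc6 (3.89 to 4.77), VILI PBEF+/- is lowest for Mcm2 (6.93 to 6.98), and VALI 4 is highest for Mcm2, Mcm5, Rrm2 and Mki67.

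Among the nucleotide supply and fork genes, Rrm2, the S-phase subunit of ribonucleotide reductase, read 7.20, 7.05 and 6.58 in VILI PBEF+/-, 7.24, 7.72, 7.64 and 8.53 in VALI, 8.00, 7.60 and 7.42 in PBEF+/- and 7.13, 7.52, 7.75 and 7.61 in Control. VILI PBEF+/- lay below every PBEF+/- and every VALI array, while Control 1 lay among its values. The difference was -0.73 ± 0.30 from PBEF+/- (SE, limma adjusted p = 0.205) and -0.84 ± 0.28 from VALI (SE, limma adjusted p = 0.426; -0.59 ± 0.22 without VALI 4 and PBEF+/- 3). A second Rrm2 probe set gave -0.71 against VALI but -0.12 against PBEF+/-, so the probe sets did not both show the gap to PBEF+/-. The interaction for Rrm2 was -1.01 ± 0.39 (SE, limma adjusted p = 0.869).

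Pcna ran the other way. It read 12.41, 12.40 and 12.32 in VILI PBEF+/-, 12.20, 12.26, 12.51 and 12.12 in VALI, 11.96, 12.07 and 12.50 in PBEF+/- and 11.96, 12.19, 12.13 and 12.23 in Control. VILI PBEF+/- averaged 12.38 ± 0.05 (SD, n = 3) and PBEF+/- 12.18 ± 0.28 (SD, n = 3), a difference of 0.20 ± 0.14 (SE, limma adjusted p = 0.391). Only PBEF+/- 3, at 12.50, stood above the VILI PBEF+/- arrays among the unventilated groups. Rrm1, the large subunit of the reductase, read 8.39, 8.32 and 8.29 in VILI PBEF+/-, below all VALI arrays (8.40, 8.48, 8.66 and 8.68), by 0.22 on the log2 scale (SE 0.12, limma adjusted p = 0.528), and its second probe set differed by -0.01. Rrm1 averaged 8.33 in VILI PBEF+/-, 8.31 in PBEF+/- and 8.37 in Control, against 8.55 in VALI, so VALI was the group that stood apart. Uhrf1, which helps maintain DNA methylation at the fork, was nearly constant at 5.39 to 5.56 on 12 arrays and stood at 6.68 in VALI 4 and 6.21 in PBEF+/- 1.

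The G1/S genes showed no difference past the test. Ccne2, a cyclin E, averaged 5.60 ± 0.29 (SD, n = 4) in VALI and 5.27 ± 0.20 (SD, n = 4) in Control, a difference of 0.33 ± 0.18 (SE, limma adjusted p = 0.344), and 0.19 without VALI 4 and PBEF+/- 3. PBEF+/- exceeded Control by 0.23 ± 0.19 and VILI PBEF+/- exceeded PBEF+/- by 0.11 ± 0.21 (SE, limma adjusted p = 0.707 and 0.769). E2f1, a transcription factor of S-phase entry, read 4.52 to 4.82 on 13 arrays and 5.39 in Control 1, so its negative differences from Control (-0.22 ± 0.18 for VALI and -0.21 ± 0.19 for PBEF+/-) rest on that array and are -0.06 and -0.04 without it.

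All 9 tested mitotic members averaged lower in VILI PBEF+/- than in PBEF+/- and in VALI, with wide spreads between arrays. Of all 11360 genes tested, 6306 and 7305 were lower in these comparisons. For Prc1 the difference from VALI was only -0.04. Nusap1 and Birc5 passed the filter through Control arrays and VALI 4 alone, which favours lower readings in VILI PBEF+/-. The untested mitotic members went both ways. Aurka, Aurkb, Bub1b, Kif20a, Tpx2, Hmmr and Cenpe averaged higher in VILI PBEF+/- than in PBEF+/- and in VALI. Ccna2, Cdk1, Ube2c, Cdca3, Bub1, Plk1, Cdca8 and Kif11 averaged lower than in both. Nusap1, which binds spindle microtubules, read 3.40, 3.60 and 3.38 in VILI PBEF+/-, 4.11, 4.42, 3.95 and 5.97 in VALI, 4.66, 4.46 and 4.18 in PBEF+/- and 3.33, 4.06, 4.81 and 5.26 in Control. VILI PBEF+/- lay below all VALI and PBEF+/- arrays, but Control 1 was lower still. The difference from VALI was -1.15 ± 0.49 (SE, limma adjusted p = 0.458) and -0.70 ± 0.40 without VALI 4 and PBEF+/- 3, and from PBEF+/- it was -0.97 ± 0.52 (SE, limma adjusted p = 0.29). On 11 of the 14 arrays Nusap1 read at or below the array median, every VILI PBEF+/- array among them. Its differences therefore involve readings that stand little above background.

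Mki67, the proliferation antigen that coats mitotic chromosomes, read 7.05, 7.25 and 6.53 in VILI PBEF+/-, 7.32, 7.29, 7.69 and 8.69 in VALI, 8.05, 6.54 and 7.76 in PBEF+/- and 7.37, 8.02, 7.77 and 7.62 in Control. All 3 VILI PBEF+/- arrays were below all 4 VALI arrays, but PBEF+/- 2 at 6.54 was as low as VILI PBEF+/- 3. The difference from VALI was -0.80 ± 0.38 (SE, limma adjusted p = 0.486), and -0.49 without VALI 4 and PBEF+/- 3. The difference from PBEF+/- was -0.51 ± 0.41 (SE, limma adjusted p = 0.459). Mki67 in PBEF+/- against Control was -0.25 ± 0.38 (SE, limma adjusted p = 0.836), and without PBEF+/- 2 it was 0.21.

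Top2a, the topoisomerase that untangles sister chromatids, read 5.64, 5.62 and 4.98 in VILI PBEF+/-, 5.74, 5.47, 5.73 and 6.65 in VALI and 6.13, 5.64 and 5.97 in PBEF+/-, with overlap against both. Cenpa, the centromeric histone, differed by -0.57 ± 0.34 from PBEF+/- (SE, limma adjusted p = 0.333), and by -0.35 ± 0.30 between VALI and Control (SE, limma adjusted p = 0.541), where Control 4 alone reached 7.25. Prc1, which bundles the central spindle, differed by -0.32 ± 0.27 between VALI and Control (SE, limma adjusted p = 0.536), and by -0.04 without Control 3. Ccnb2, Cdc20, Birc5 and Kif23 (a mitotic cyclin, the activator of the anaphase-promoting complex, survivin and a cytokinesis motor) each averaged lower in VILI PBEF+/- than in PBEF+/-, by 0.30 to 0.39 on the log2 scale, with overlap, and VILI PBEF+/- 3 held the lowest value of that group for all 4. A second Cdc20 probe set gave -0.59 there. Against Control it gave -0.44 for VALI and -0.46 for PBEF+/-, where the kept probe set gave -0.05 and 0.07.

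Read by overlap, 8 of the 22 tested genes (36.4%) were lower in every VILI PBEF+/- array than in every VALI array, against 10.2% of all genes tested: Mcm2, Mcm5, Mcm6, Mcm7, Rrm1, Rrm2, Nusap1 and Mki67. Leaving out arrays can only keep or raise such a count, which was 8 without VALI 4 and PBEF+/- 3, when 12.0% of all genes were lower in this way, and limma then called 0 members and 0.114% of all genes. Against PBEF+/-, 4 of 22 (18.2%) were lower without overlap, against 10.8% of all genes, and 1 (Mcm4) was higher, against 8.47%. Of the 8, all but Nusap1 read above the array median on all 14 arrays. Nusap1 passed the filter through no VILI PBEF+/- array. In VILI PBEF+/-, Rrm1 averaged 8.33, against 8.31 in PBEF+/- and 8.37 in Control. The VILI PBEF+/- arrays are also those of younger animals, and their B cell and T and NK cell sums lay below all PBEF+/- and Control arrays and overlapped those of VALI. The parts of age and cell makeup in these counts were not tested.

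Without VALI 4 and PBEF+/- 3 (VALI n = 3, PBEF+/- n = 2), limma called 4 members between VILI PBEF+/- and PBEF+/-. Mcm2 fell by 0.76 (SE 0.17, limma adjusted p = 0.00771), Mcm5 by 0.73 (SE 0.20, limma adjusted p = 0.0217) and Rrm2 by 0.86 (SE 0.25, limma adjusted p = 0.0257), all on the log2 scale, and Pcna rose by 0.36 ± 0.11 (limma adjusted p = 0.0352). Their adjusted p over all alternatives reached 0.46, 0.555, 0.415 and 0.756 in that order. These are 3 of 22 lower and 1 of 22 higher, where 15.3% of all genes were called lower and 11.2% higher, so neither share of the members exceeded that of all genes. By overlap, 9 of 22 (40.9%) were lower, against 30.1%. In VALI against Control, Cdc6 was the 1 member called (6.53% of all genes were called higher and 10.5% lower). In PBEF+/- against Control and in the interaction, 0 members and 0% of all genes were called, with 2 members higher in PBEF+/- at an unadjusted p under 0.05 (9.09%, against 2.90% of all genes) and 4 with a negative interaction (18.2%, against 4.63%).

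A second list of 82 other cell cycle genes with a probe set (D-type cyclins, kinase inhibitors, pocket proteins, further replication and mitosis genes) gave 55 tested genes. As labelled, limma called 0 of them in every comparison. At an unadjusted p under 0.05, 2 were higher and 11 lower in VILI PBEF+/- than in PBEF+/-, against 9.35% and 11.4% of all genes, and 0 higher and 10 lower than in VALI, against 3.40% and 7.09%. VALI against Control had 2 higher and 3 lower (all genes 7.22% and 11.0%), PBEF+/- against Control 1 and 1 (1.93% and 6.33%), and the interaction 2 and 5 (2.87% and 2.71%). The genes with the smallest p included Ccnd2 (-0.39 ± 0.11) and the inhibitor Cdkn2d (0.50 ± 0.15) in VALI against Control, the flap endonuclease Fen1 (0.53 ± 0.14) and Ccnd1 (-0.24 ± 0.11) in PBEF+/- against Control, Cdkn2d (0.67 ± 0.17) and Nek2 (-1.96 ± 0.52) in VILI PBEF+/- against PBEF+/-, and Incenp (-0.70 ± 0.19) and the licensing factor Cdt1 (-0.88 ± 0.26) in VILI PBEF+/- against VALI. Incenp and Cdt1 also had the list's smallest p in the interaction (-0.90 ± 0.26 and -1.26 ± 0.36).

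In this second list, the arrays of Nek2, Gmnn and Cdkn2c were ordered as for Il6 and not as labelled. These genes had the list's steepest falls with VALI 4 and PBEF+/- 3 left out, as given below. Such a choice favours genes on which those arrays read unlike their group, so the order is no separate evidence about the labels. How many genes of the list, or of all genes, share it was not counted. Nek2, a centrosome kinase, read 4.13, 3.29 and 3.42 in VILI PBEF+/-, 4.78, 4.93, 4.44 and 6.12 in VALI, 6.26, 6.22 and 4.23 in PBEF+/- and 5.40, 5.79, 5.84 and 5.99 in Control. VALI 4 stood with the unventilated arrays and PBEF+/- 3 with the ventilated ones. Geminin (Gmnn), the inhibitor of relicensing, showed the same arrangement, at 6.69, 6.76 and 7.12 in VILI PBEF+/-, 7.44, 7.44, 7.84 and 8.85 in VALI, 8.33, 8.81 and 7.19 in PBEF+/- and 8.08, 8.15, 8.19 and 8.72 in Control. Cdkn2c, an inhibitor of the D-cyclin kinases, read 7.87 in PBEF+/- 3 and 9.66 in VALI 4, against 7.71 to 8.38 in the other ventilated arrays and 8.69 to 9.65 in the other unventilated ones. Of the 22 members, VALI 4 was above each of VALI 1 to 3 for 17, as given above, and PBEF+/- 3 was below both PBEF+/- 1 and 2 for 12 (54.5%, against 42.9% of all tested genes).

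Without those 2 arrays, 9 of the 55 were called in VALI against Control: Cdkn2d rose (0.54) and Ccnd1, Ccnd2, Cdkn2c, Rbl1, E2f2, Gmnn, Pold1 and Nek2 fell, by 0.36 (Ccnd1) to 1.04 (Nek2) on the log2 scale. These are 1.82% higher and 14.5% lower, against 6.53% and 10.5% of all genes. In VILI PBEF+/- against PBEF+/-, 17 of the 55 were called, 3.64% higher and 27.3% lower, against 11.2% and 15.3% of all genes. Cdkn2d (0.81) and Tfdp1 (0.45) rose, and Cdkn2b, Cdkn2c, Rbl1, E2f2, Cdt1, Gmnn, Pold1, Rpa1, Dut, Atm, Chek2, Nek2, Mad2l1, Pttg1 and Incenp fell. The steepest falls were those of Nek2 (2.63, limma adjusted p = 0.00014), Gmnn (1.72, limma adjusted p = 0.000647) and Cdkn2c (1.37, limma adjusted p = 0.00281) on the log2 scale, and they rest on 2 PBEF+/- arrays. Of the 10 tested genes of the further mitosis group, all 10 were then lower in VILI PBEF+/- than in PBEF+/- and 4 were called lower, where 6363 of all 11360 genes were lower and 15.3% were called lower. In the list's other groups, lower were 3 of 7 D-type cyclins and interphase kinases, 4 of 6 kinase inhibitors and 5 of 8 pocket proteins and transcription factors. So were 16 of 20 further replication genes and 4 of 4 checkpoint kinases. In that order, 0, 2, 2, 5 and 2 genes were called lower.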

How the data were processed

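RNA of 14 mouse lung samples was measured on 1 Affymetrix array each. The deposited values are log2 expression values, and MAS5 and GCRMA are both listed in the submitters' processing notes, so which of them made these values is not given in the sources used here. The 45101 probe sets were named from the platform annotation, and 34958 had 1 symbol. Values were used as deposited, with no further scaling. A gene was its probe set with the highest mean, kept when above the array median on at least 3 of 14 arrays (11360 genes).

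A 4-group linear model was fitted with limma 3.58.1 (R 4.3.3, lmFit and eBayes with a variance trend, 10 residual degrees of freedom), and p-values were Benjamini-Hochberg adjusted over the 11360 genes, with 0.05 as threshold. The number of arrays limits the precision. The fit was tested on simulated data. Python 3.11.15, pandas 2.3.3 and matplotlib 3.10.9 made the summaries and figures.

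The members and lists were chosen with earlier results of these data known. Named with full values were members called, the 3 with the smallest p, the 3 largest rises and falls per comparison, and the 3 highest and lowest means; of the other cell cycle genes, those called and the 2 with the smallest p. Alternatives changed the filter, the variance trend, the scaling, the arrays fitted, the probe set rule, a sex pattern covariate and a block for replicate number, and left out each array. Same-numbered arrays of different groups did not deviate together: r over 19 pairs spanned -0.35 to 0.32, with 7 over 0.1, so numbers were not taken as pairs.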

Additional observations from a re-analysis of the deposited data

Results flagged for a closer look

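In 46 checks of the 4-array groups (22 tested genes and their mean deviation, in VALI and in Control), 13 held an array whose gap to the nearest of the others passed Dixon's critical value of 0.829 for 4 samples. A single check passes it by chance in about 1 in 20 groups. The checks share the same arrays, and the mean deviation is made of the same 22 genes, so the count of 13 cannot be set against that rate. The share of all tested genes that pass this rule was not computed. VALI 4 was the high array in 7 of the 13. It read 8.27 for Mcm2 against 7.32 to 7.39 in VALI 1 to 3, 9.31 for Mcm3 against 8.95 to 8.98, and 10.15 for Mcm6 against 9.71 to 9.78. It also read 6.68 for Uhrf1 against 5.43 to 5.50, 5.86 for Ccnb2 against 4.95 to 4.98, and 5.28 for Birc5 against 4.36 to 4.41. Its mean deviation over the 22 genes was 0.55 against -0.04 to 0.01.

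The other 6 were Control arrays. Control 1 read 5.39 for E2f1 against 4.67 to 4.79 in the other Control arrays, and 3.93 for Birc5 against 4.69 to 4.75. Control 2 read 8.94 for Mcm5 against 9.30 to 9.37. Control 3 read 5.56 for Uhrf1 against 5.39 to 5.41. Control 4 read 8.62 for Rrm1 against 8.25 to 8.31, and 7.25 for Cenpa against 6.34 to 6.45.

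For Cdc6 and Mcm3, every VILI PBEF+/- array lay below the mean of PBEF+/-, while every VALI array lay above the mean of Control. The interaction, which tests this difference, was -1.51 for Cdc6 (limma adjusted p = 0.732) and -0.53 for Mcm3 (limma adjusted p = 0.888), and neither passed after adjustment over all genes.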

How the results depend on the processing

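Over 36 pairs of a named gene and a comparison, 756 of 780 values under the alternatives had the same direction and side of the threshold, 17 reversed and 7 were newly called. The causes were not tested unless stated. No pair was called as labelled, the pairs were chosen from these same data, and the alternatives share most arrays. The count of 756 is therefore no measure of how firm the differences are. Without VALI 4 and PBEF+/- 3, limma called 1 member in VALI against Control and 4 in VILI PBEF+/- against PBEF+/-, and 1933 genes in all in VALI against Control, 3003 in VILI PBEF+/- against PBEF+/- and 13 in VILI PBEF+/- against VALI. The median difference of the 43 genes was then -0.038 in VILI PBEF+/- against VALI and -0.087 in the interaction, and Cenpa in PBEF+/- against Control reversed to 0.16. Fitting the groups compared alone, which cannot be done for the interaction, called 27 genes in VALI against Control and 1 in VILI PBEF+/- against VALI. With every probe set tested on its own, 1 and 2 probe sets were called in VILI PBEF+/- against PBEF+/- and against VALI. The median difference over the 100 probe sets of the 43 genes, whether or not they passed the filter, was -0.0053, 0.012 and, in the interaction, -0.0066.

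Leaving out 1 array at a time gave 0 to 1 members called in VALI against Control (1 without VALI 4 or without PBEF+/- 3). Genes called in all ranged from 0 to 680 in VALI against Control (680 without VALI 4, 288 without PBEF+/- 3), from 0 to 2157 in VILI PBEF+/- against PBEF+/- (2157 without PBEF+/- 3, 12 without VILI PBEF+/- 3), and from 0 to 9 in VILI PBEF+/- against VALI (9 without PBEF+/- 3 or VILI PBEF+/- 3). The median of the 43 genes ranged from -0.18 to -0.051 in VILI PBEF+/- against PBEF+/-, from -0.22 to -0.038 in VILI PBEF+/- against VALI and from -0.26 to -0.081 in the interaction. Small differences that changed sign in this way were Uhrf1 (-0.0083 to 0.39), Mki67 (-0.54 to 0.21) and Cenpa (-0.36 to 0.16) in PBEF+/- against Control, Mcm4 (-0.033 to 0.061) and Ccne2 (-0.069 to 0.15) in VILI PBEF+/- against VALI, and E2f1 (-0.023 to 0.22), Prc1 (-0.22 to 0.29) and Pcna (-0.052 to 0.22) in the interaction.

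A block for the replicate number, although the numbers do not pair the arrays, called 0 genes in each comparison, as did the model without it, with Cdc6 at 1.10 in VALI against Control (limma adjusted p = 0.101). Levels near or below the array median, as for Nusap1, Birc5, Prc1 and, in Control, Cdc6, stand little above background. Every VILI PBEF+/- reading of Nusap1 (3.40, 3.60 and 3.38) lay below the array medians of 4.60 to 4.75.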
